A study of Mus musculus with 10 samples.

Results

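The 10 genes Adgre1, Vcam1, Cd5l, Marco, Siglec1, Timd4, Cd68, Csf1r, Mertk and Axl, which mark macrophages of the mouse spleen, were followed in 10 PG-immunized mice. Adgre1, Vcam1 and Cd5l stand for red pulp macrophages, Marco and Siglec1 for marginal zone macrophages, and Timd4, Cd68, Csf1r, Mertk and Axl for macrophages in general. The genes were listed by name and their probe sets were taken by gene symbol from the platform's probe-to-gene table. They are 10 of 18193 genes with a probe set of 1 symbol and are read by 18 of the 45037 probe sets. Of these 18, 15 passed the filter on dim probe sets, a value above the array's median in at least 2 arrays, and all 15 lay above the median in all 10 arrays. The other 3, for Siglec1 (1422161_at and 1427668_at) and Axl (1438621_x_at), lay below the median in all 10 arrays.

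PG-induced arthritis is a model of rheumatoid arthritis in which the cartilage proteoglycan aggrecan (PG) is injected with an adjuvant. All 10 mice were female BALB/c siblings that had received PG (100 µg protein) with 2 mg dimethyldioctadecyl-ammonium bromide (DDA) by the intraperitoneal route on days 0, 21 and 42, and no untreated mice were among them. Each array held RNA of a 50 mg piece of the spleen of 1 mouse taken at the end of the experiment. The groups were 2 old arthritic mice, both labelled 9 months, 2 old non-arthritic mice of 7 and 5 months, 2 young arthritic mice of 5 and 4 months, and 4 young non-arthritic mice of 3, 3, 2 and 1 months. Each arthritic mouse was thus older than the non-arthritic mice of its age group, and the mean labelled age was 6.75 months in the 4 arthritic and 3.5 months in the 6 non-arthritic mice. The labels do not say whether the age was that at immunization or at the end.

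Splenic macrophages are divided by region. Red pulp macrophages take up worn red blood cells and recycle their iron, and depend on the transcription factor SPIC. Macrophages of the marginal zone, where blood enters the white pulp, bind particles from the blood with scavenger receptors such as MARCO, while the metallophilic macrophages next to them carry the sialic acid-binding lectin SIGLEC1 (CD169). Most of these cells need signals through the growth factor receptor CSF1R and clear dead cells with receptors that recognise phosphatidylserine, directly as with TIM-4 or through the bridging proteins GAS6 and protein S as with MERTK and AXL.

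RefSeq sequence upstream of the start was at hand for 6 of the 10 genes, Cd5l, Marco, Timd4, Cd68, Mertk and Axl. The 150 bases before the start were searched on both strands for the letters GAGGAA, whose reverse complement reads as TTCCTC. They form a purine-rich core of the kind bound by the ETS factors PU.1 and SPIC that macrophages use. The core was in 3 of the 6, Cd5l, Marco and Axl, and in 14.5% of 32851 promoters of the same length. The letters TATAAA, searched in the same way, were in 0 of the 6 and in 7.57% of the promoters. Cd5l, Marco and Axl are shown because they hold the core, and Cd68, which does not, because it and Cd5l had the 2 largest differences in young mice. Sequences are from GRCm38.p6, run 5′ to 3′ on the gene's own strand, and capitals mark the core or its reverse complement.
Cd5l, chr3:87357731-87357880, forward strand: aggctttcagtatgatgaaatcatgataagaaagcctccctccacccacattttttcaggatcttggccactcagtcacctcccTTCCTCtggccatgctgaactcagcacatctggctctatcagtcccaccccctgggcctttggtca
Marco, chr1:120505025-120505174, reverse strand: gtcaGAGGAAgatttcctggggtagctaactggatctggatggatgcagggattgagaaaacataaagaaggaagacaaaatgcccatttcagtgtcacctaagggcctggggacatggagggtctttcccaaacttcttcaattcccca
Axl, chr7:25788734-25788883, reverse strand: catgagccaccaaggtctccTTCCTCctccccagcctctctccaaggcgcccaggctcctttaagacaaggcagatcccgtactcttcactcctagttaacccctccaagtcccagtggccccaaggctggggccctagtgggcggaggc
Cd68, chr11:69666171-69666320, reverse strand: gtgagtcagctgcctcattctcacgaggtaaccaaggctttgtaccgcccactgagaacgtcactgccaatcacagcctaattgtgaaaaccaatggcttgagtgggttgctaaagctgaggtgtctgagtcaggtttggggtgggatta
These matches describe the letters in the window and are not evidence of binding.

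Values are log2 signals made with RMA, a method that sets the probes of a set on a common scale across arrays, so a difference of 1 is a factor of 2 in signal. Array medians ran from 6.88 to 6.96 and correlations between arrays from 0.955 to 0.992. Old arthritic replicate 2 stood apart from the other arrays, at 52.6 on a principal component that held 40.0% of the variance, against at most 19.6 for any other array on that side. The counts, the median and the value of each of the 10 genes in old mice are therefore also given without it, and those of other named genes where it moved them by more than 1.5 times. The spleen held the genes that define it. Beside the macrophage genes, all 6 B cell and all 6 T cell genes with a probe set of their symbol passed the filter. Each of these lists named 7 genes. Differences were tested with limma over all 23805 probe sets that passed the filter, and a gene with several probe sets is described by the brightest unless a probe set is named. In whole spleen, fewer macrophages and less RNA of a gene per macrophage cannot be told apart.

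**Figure D1:**
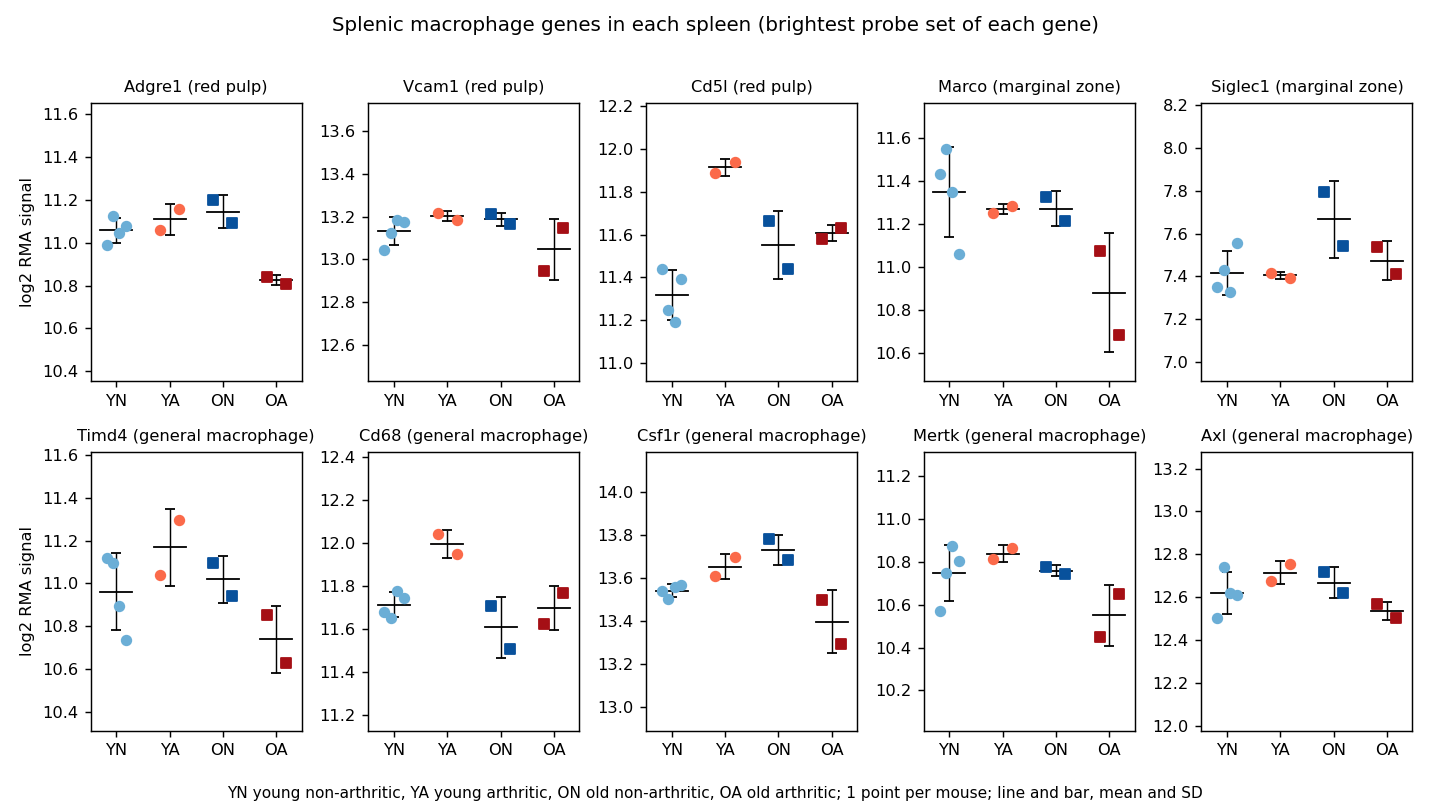
Log2 RMA signal of each gene (brightest probe set) in each of the 10 spleens, by group, with the group mean and SD; each panel spans its own range of levels. Adgre1 and Csf1r were lowest in the old arthritic mice, and Cd5l and Cd68 highest in the young arthritic mice.

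In old mice, 8 of the 10 macrophage genes lay lower in the arthritic than in the non-arthritic spleens, with the exceptions of Cd5l and Cd68, which lay slightly higher. The median difference over the 10 genes was -0.20 on the log2 scale, against 0.05 over all probe sets tested. None of the 15 probe sets passed an adjusted p of 0.05 in limma, where 0.0714% of all probe sets did. At an unadjusted p under 0.05 the count was 4 of 15, of Adgre1, Marco and Csf1r, against 18.6% of all probe sets. Both old arthritic mice lay below both old non-arthritic mice in 12 of 15 probe sets, of all genes but Cd5l and Cd68, where 16.2% of all probe sets did so. The gap was slight in Siglec1 (nearest values 7.54 and 7.54) and in 1458297_s_at of Marco (9.96 and 9.99). It was also slight in 1448162_at (13.15 and 13.17) and 1415989_at (12.46 and 12.48) of Vcam1. Without old arthritic replicate 2, the median was -0.18, 0 probe sets passed in limma, and the remaining arthritic mouse was below both non-arthritic mice in 13 of 15 probe sets, as in 30.5% of all. The 15 probe sets read 10 genes, so those of 1 gene are not separate evidence.

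Adgre1 encodes the adhesion receptor by whose antigen red pulp macrophages are usually recognised. Its level was 10.84 and 10.81 in the old arthritic mice and 11.20 and 11.09 in the old non-arthritic mice. The groups did not overlap, and the 2 arthritic values were also below all 6 values of the young mice. The difference was -0.32 (SE 0.09, 95% confidence interval -0.52 to -0.12, limma adjusted p = 0.132). Without old arthritic replicate 2 it was -0.30 (limma adjusted p = 0.443).

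Csf1r encodes the receptor for the growth factors CSF1 and IL-34. By probe set 1419872_at it measured 13.50 and 13.30 in the old arthritic mice and 13.78 and 13.68 in the old non-arthritic mice. Here too the groups were apart, with a difference of -0.33 (SE 0.10, 95% confidence interval -0.55 to -0.12, limma adjusted p = 0.137). The other probe sets of the gene gave -0.20 (SE 0.09, 1419873_s_at) and -0.29 (SE 0.11, 1423593_a_at). The value of the brightest probe set depended on the arrays: it was -0.44 without old arthritic replicate 1, the only setting in which it passed (limma adjusted p = 0.0470), and -0.23 without old arthritic replicate 2 (limma adjusted p = 0.519).

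Marco, the scavenger receptor of marginal zone macrophages, measured 11.07 and 10.68 in the old arthritic mice and 11.33 and 11.21 in the old non-arthritic mice by probe set 1449498_at. The second probe set, 1458297_s_at, read 9.96 and 9.55 against 10.33 and 9.99. Old arthritic replicate 2 was the lower mouse in both, and the groups did not overlap in either. The differences were -0.39 (SE 0.17, limma adjusted p = 0.263) and -0.41 (SE 0.27, limma adjusted p = 0.425). By the brighter probe set the difference was -0.20 without old arthritic replicate 2 and -0.59 without old arthritic replicate 1.

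The phosphatidylserine receptor gene Timd4, at 10.85 and 10.63 against 11.10 and 10.94, differed by -0.28 (SE 0.15) between old arthritic and old non-arthritic mice. Mertk, which encodes a receptor for GAS6 and protein S, was at 10.45 and 10.65 against 10.78 and 10.74, a difference of -0.21 (SE 0.12). The related receptor gene Axl was at 12.57 and 12.50 against 12.72 and 12.62, a difference of -0.13 (SE 0.10). In each of the 3 genes the arthritic mice were the lower pair, and the limma adjusted p-values were 0.353, 0.356 and 0.481. Each value moved with the mice used: leaving out 1 old mouse at a time, Timd4 ran from -0.39 (without old arthritic replicate 1) to -0.17 (without old arthritic replicate 2), and Mertk from -0.31 (without old arthritic replicate 2) to -0.11 (without old arthritic replicate 1). Axl ran from -0.18 to -0.08, without old non-arthritic replicates 2 and 1, and was -0.10 without old arthritic replicate 2.

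Vcam1 encodes an adhesion molecule that red pulp macrophages carry together with endothelium and stroma. Its 3 probe sets differed by -0.17, -0.14 and -0.13 in old mice, with limma adjusted p-values between 0.347 and 0.578. In 2 of them the arthritic mice were below the non-arthritic mice, and in 1451314_a_at they overlapped, at 11.05 and 11.21 against 11.33 and 11.19. Without old arthritic replicate 2 the difference of the brightest probe set was -0.24, and without old arthritic replicate 1 it was -0.04. The summed signal of 11 endothelial and stromal genes was 16642 to 16744 in the old arthritic and 16803 to 19688 in the old non-arthritic mice, and the part of such cells in the Vcam1 value was not tested.

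Cd5l encodes a secreted scavenger protein (AIM) of tissue macrophages, and Cd68 a glycoprotein of the lysosome. In old mice Cd5l measured 11.58 and 11.63 in the arthritic and 11.66 and 11.44 in the non-arthritic spleens, a difference of 0.05 (SE 0.12). Cd68 measured 11.62 and 11.77 against 11.71 and 11.51, a difference of 0.09 (SE 0.10). The groups overlapped in both genes, and the signs of both differences turned when the arrays were quantile normalized again, to -0.06 and -0.03. They turned likewise without old non-arthritic replicate 2, to -0.06 and -0.01, and were 0.03 and 0.02 without old arthritic replicate 2.

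In young mice, Cd5l and Cd68 had the largest differences of the 10 genes, and both were higher in the arthritic mice. None of the 15 probe sets passed an adjusted p of 0.05 in limma, where 0.311% of all probe sets did, and 2 of 15, Cd5l and Cd68, had an unadjusted p under 0.05, against 18.2% of all probe sets. The median difference over the 10 genes was 0.09, equal to that over all probe sets tested to 2 decimals, and 5 genes lay above that median and 5 below. The young arthritic mice lay above all 4 young non-arthritic mice in 6 of 15 probe sets, of Vcam1, Cd5l, Cd68 and Csf1r, where 25.6% of all probe sets did so. In 2 of these 6 the gap was slight, with nearest values of 13.19 and 13.19 in Vcam1 and of 12.81 and 12.80 in Csf1r.

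Cd5l measured 11.89 and 11.94 in the young arthritic mice and 11.44, 11.25, 11.19 and 11.39 in the young non-arthritic mice. The arthritic mice were the highest of all 10 in this gene. The difference was 0.60 (SE 0.10, 95% confidence interval 0.37 to 0.82), a factor of 1.51, with a limma adjusted p of 0.0544. The adjusted p ran from 0.0111 to 0.456 over the alternatives and passed in 3 of them, with no filter (0.0111), with array weights (0.0228) and with the mean over the probe sets of each gene (0.0363), all in limma.

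Cd68 measured 12.04 and 11.95 in the young arthritic mice and 11.68, 11.65, 11.78 and 11.74 in the young non-arthritic mice. As in Cd5l, the young arthritic mice were above the other 8 mice. The difference was 0.28 (SE 0.09, 95% confidence interval 0.08 to 0.49, limma adjusted p = 0.176).

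Of the remaining genes, Timd4 was at 11.04 and 11.30 in the young arthritic mice and at 11.12, 11.09, 10.90 and 10.74 in the young non-arthritic mice, which overlapped (difference 0.21, SE 0.13, limma adjusted p = 0.426). The 3 probe sets of Csf1r differed by 0.11, 0.14 and 0.12, and those of Vcam1 by 0.08, 0.07 and 0.02. Adgre1, Mertk and Axl differed by 0.05, 0.09 and 0.10, and the single kept probe set of Siglec1 by -0.01. The probe sets of Marco disagreed in sign, at -0.08 and 0.08. The direction of most of these values depended on the scaling: with quantile normalization repeated, Cd5l (0.44), Cd68 (0.12) and Timd4 (0.07) stayed above 0 in young mice, and the other 7 genes lay between -0.23 and -0.03.

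**Figure D2:**
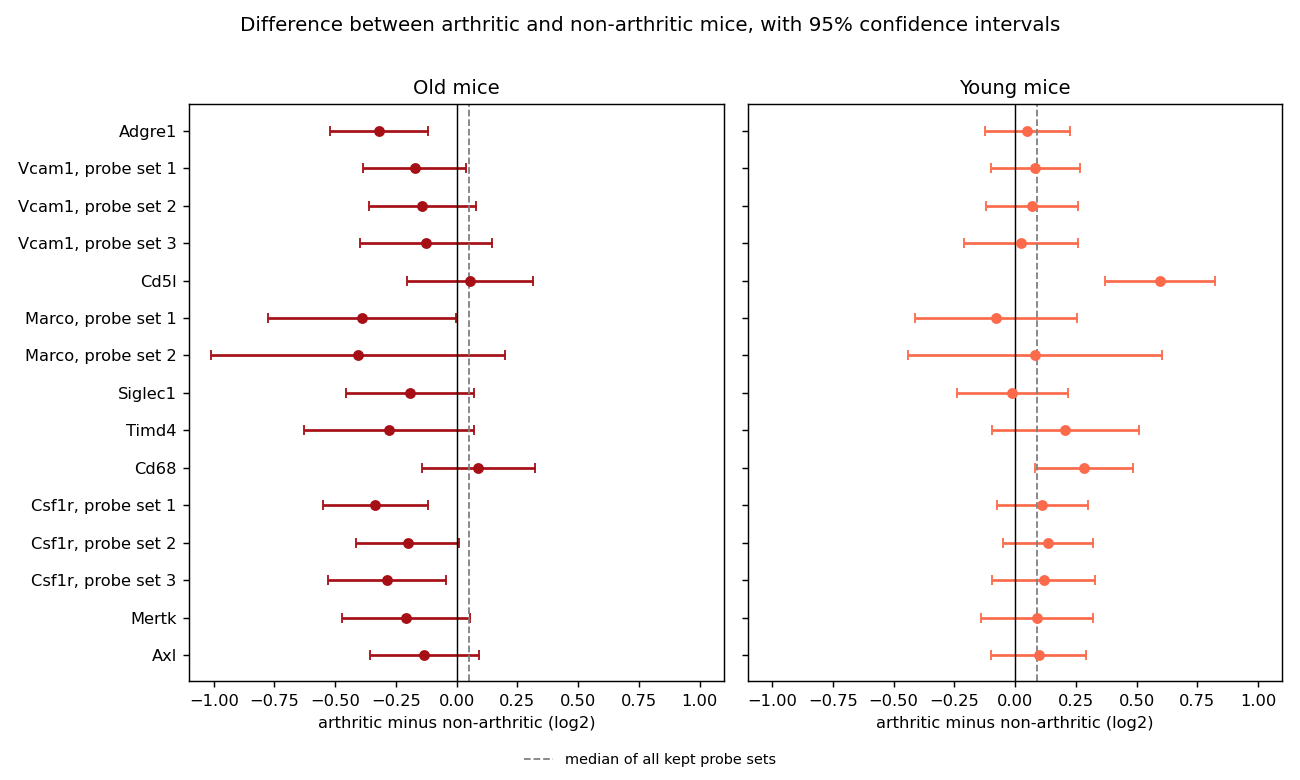
Difference between arthritic and non-arthritic mice (log2) with its 95% confidence interval for the 15 probe sets, in old mice (left) and young mice (right); probe sets of 1 gene are numbered in the order of their identifiers, and the dashed line is the median of all probe sets tested. Old mice had most genes below 0 and young mice had Cd5l, at 0.60, apart from the rest.

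Whether arthritic mice differed from non-arthritic mice by the same amount at both ages was tested as the difference of the 2 effects, old minus young. It was below 0 in 15 of 15 kept probe sets, where 57.5% of all kept probe sets were below 0. The median over the 10 genes was -0.31, against -0.03 over all kept probe sets. The sign was not particular to macrophage genes: it was also below 0 in all kept genes of the T cell (6, median -0.18), red cell (7, median -0.25), platelet (6, median -0.10) and mesothelium and fat (7, median -0.66) lists, and above 0 in all 8 neutrophil genes (median 0.82). All 10 genes were below 0 under each of the 3 scalings, with medians of -0.31 as deposited, -0.29 with each array centred on its median and -0.25 with quantile normalization repeated. None of the 15 passed an adjusted p of 0.05 in limma, where 0% of all probe sets did. An unadjusted p under 0.05 was found in 6 of 15, of Adgre1, Cd5l, Timd4 and Csf1r, against 3.10% of all probe sets. Of these 6, 3 were probe sets of Csf1r and are not separate evidence. The difference of effects was -0.54 (SE 0.15) in Cd5l, -0.49 (SE 0.20) in Timd4, -0.45 (SE 0.13) in Csf1r and -0.37 (SE 0.12) in Adgre1. The groups behind these values differed, since the old groups overlapped in Cd5l while the young groups were apart, and the reverse held for Adgre1 and Timd4. Leaving out old arthritic replicate 2 moved the difference of effects from -0.45 to -0.34 in Csf1r and from -0.31 to -0.12 in Marco. It moved away from 0 in Vcam1, from -0.21 to -0.31, and in Mertk, from -0.30 to -0.40. In 4 probe sets, 2 of Csf1r and 2 of Vcam1, arthritic mice were apart from all non-arthritic mice of their age group at both ages. Their signal was lower in both old arthritic mice and higher in both young arthritic mice. The share of all probe sets with both was not computed, so this count is not read as unusual. Taken singly, 16.2% of all probe sets lay lower without overlap in old arthritic mice and 25.6% higher in young arthritic mice. In 1448162_at of Vcam1 and 1419873_s_at of Csf1r the young groups were nearly tied. With quantile normalization repeated, the young difference of the brightest probe set was -0.04 in Csf1r and -0.10 in Vcam1.

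The summed linear signal of the 10 genes, which the brightest of them govern, was 38400 to 39178 in the old arthritic mice and 42728 to 45972 in the old non-arthritic mice. In young mice it was 45246 to 46713 in the arthritic and 40924 to 42316 in the non-arthritic group. Neither pair of groups overlapped, and the order of arthritic and non-arthritic mice was opposite at the 2 ages. These sums were taken on the deposited scale only, on which the median difference over all probe sets in young mice was 0.09. With quantile normalization repeated, the bright genes Csf1r, Vcam1 and Axl differed by -0.04, -0.10 and -0.07 in young mice. The order in young mice thus depended on the scaling in these genes.

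Age among the non-arthritic mice was compared between the 2 old and the 4 young mice. No macrophage gene passed, with limma adjusted p-values of 0.997 to 0.998 in all 15 probe sets, and 0% of all probe sets passed. An unadjusted p under 0.05 was found in 3 of 15, against 3.19% of all probe sets. These were Siglec1, higher by 0.25 (SE 0.10) in old mice, Cd5l by 0.23 (SE 0.10) and Csf1r by 0.19 (SE 0.08, 1419872_at). The other probe sets of Csf1r, which were not among them, gave 0.08 (SE 0.08, 1419873_s_at) and 0.19 (SE 0.09, 1423593_a_at). The mouse of 7 months (old non-arthritic replicate 1) carried much of the Siglec1 value, which was 0.12 when it was left out and 0.38 when old non-arthritic replicate 2 was, and Cd5l moved likewise, to 0.12 and 0.34.

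With age in months as a covariate, arthritic and non-arthritic mice were compared at equal age over all 10 arrays. This rests on few mice, since the label of 5 months is the only age that arthritic and non-arthritic mice share. None of the 15 probe sets passed in limma, where 2.26% of all probe sets did, and 2 of 15, Cd5l and Cd68, had an unadjusted p under 0.05, against 22.9% of all probe sets. Cd5l was higher by 0.37 (SE 0.14, limma adjusted p = 0.151) and Cd68 by 0.30 (SE 0.09, limma adjusted p = 0.104). With array weights both passed (limma adjusted p = 0.0424 and 0.0256), and with quantile normalization repeated they were 0.20 and 0.13 (limma adjusted p = 0.530 and 0.580). Leaving out each mouse in turn, Cd5l ran from 0.23 without young arthritic replicate 2 to 0.57 without old non-arthritic replicate 1, Cd68 from 0.23 without young arthritic replicate 1 to 0.43 without old non-arthritic replicate 1, and neither passed in any of these fits. The median over the 10 genes was 0.02, against 0.09 over all probe sets, and it was -0.15 with quantile normalization repeated. Per month of age, 0 of 15 probe sets passed in limma, where 0.00420% of all probe sets did, and 1 of 15, Cd68 at -0.04 per month (SE 0.02), had an unadjusted p under 0.05, against 9.98% of all.

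**Figure D3:**
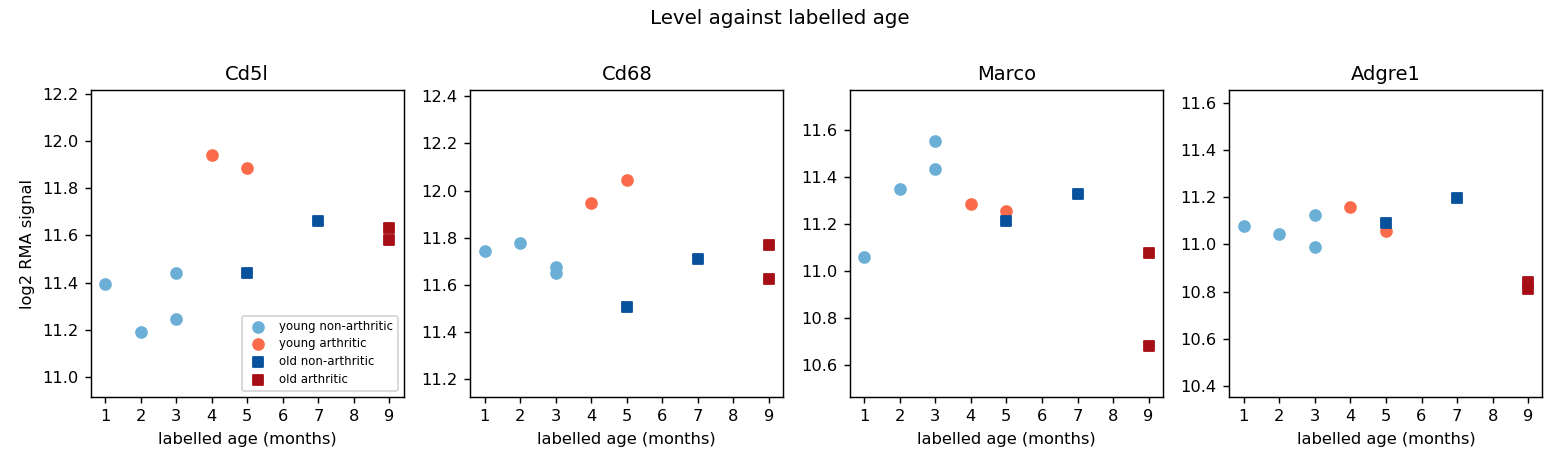
Log2 RMA signal of Cd5l, Cd68, Marco and Adgre1 against labelled age in months, 1 point per mouse, coloured by group. In Cd5l and Cd68 the 2 young arthritic mice, of 4 and 5 months, lie above mice of every other age, and in Adgre1 the old arthritic mice of 9 months lie below all others.

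Siglec1 was read by 3 probe sets, of which 1 was kept. The kept probe set 1427706_a_at measured 7.54 and 7.41 in the old arthritic, 7.79 and 7.54 in the old non-arthritic, 7.41 and 7.39 in the young arthritic and 7.35, 7.43, 7.33 and 7.56 in the young non-arthritic mice. These values lie close to the array median of 6.88 to 6.96, and the probe set no longer passed when the filter asked for 1 log2 unit above that median. The old groups met at 7.54, apart only beyond the second decimal. The difference was -0.19 (SE 0.12, limma adjusted p = 0.385) in old mice and -0.18 (SE 0.10, limma adjusted p = 0.304) at equal age. Both values were nearest to 0 without old non-arthritic replicate 1, at -0.07 and -0.06. Leaving out old non-arthritic replicate 2 gave -0.32 and -0.19, and leaving out old arthritic replicate 2 gave -0.13 and -0.17.

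The 2 dim probe sets of Siglec1 lay lower in the arthritic mice of both ages. Probe set 1422161_at was at 4.46 and 4.69 in the old arthritic mice, 5.21 and 5.09 in the old non-arthritic, 4.73 and 4.75 in the young arthritic and 4.99, 5.09, 4.88 and 4.88 in the young non-arthritic mice. Probe set 1427668_at was at 5.85 and 5.76, 6.11 and 6.04, 5.62 and 5.62, and 5.82, 6.16, 5.98 and 6.08 in the same order of groups. In both, arthritic and non-arthritic mice of an age group did not overlap. The share of all dim probe sets that did so was not computed. Of the probe sets that passed the filter, 16.2% lay lower without overlap in the old arthritic mice. The dim probe sets are not among these, and no such share was computed for young mice. The lack of overlap is therefore not read as unusual. In a limma fit of all 45037 probe sets with no filter, 1422161_at fell by 0.57 in old mice (SE 0.11, adjusted p = 0.0259) and by 0.40 at equal age (SE 0.11, adjusted p = 0.0363). In the same limma fit 1427668_at fell by 0.39 in young mice (SE 0.10, adjusted p = 0.0470) and by 0.40 at equal age (SE 0.09, adjusted p = 0.0212). Both young arthritic mice held the identical value of 5.62009 in this probe set, and the reason was not tested.

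These calls stand among many. With no filter, 1 of 18 macrophage probe sets passed in old mice, where 5.06% of all did, 2 of 18 in young mice (Cd5l and Siglec1), where 7.07% did, and 2 of 18 at equal age, both of Siglec1, where 12.2% did. Of the 21232 probe sets below the filter, 35.8% reached an unadjusted p under 0.05 in the equal-age comparison, 18.2% lower and 17.6% higher in arthritic mice. How much of the Siglec1 difference at these low levels is signal of its transcript was not tested. The dim probe set of Axl, at 3.33 to 3.85, lay the other way from its bright one in old mice, at 0.29 (SE 0.12). In the difference of the arthritis effects, old minus young, the dim probe sets did not share 1 sign. It was 0.09 in Axl, 0.12 in 1427668_at of Siglec1 and -0.35 in 1422161_at of Siglec1.

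Another 5 lists, 72 genes in all with 68 kept, covered the surroundings of the 10 genes. The difference of the arthritis effects, old minus young, was below 0 in 12 of 12 other red pulp and haem recycling genes, 11 of 11 kept growth factor and transcription factor genes, 17 of 17 kept genes for the uptake of dead cells, 21 of 22 lysosomal and general phagocyte genes and 4 of 6 other marginal zone genes, against 57.5% of all probe sets. With quantile normalization repeated the counts were 11, 9, 15, 18 and 4. The medians were -0.15, -0.18, -0.18, -0.15 and -0.10, nearer to 0 than the -0.31 of the 10 genes. No gene of these lists passed in limma in that test, in either age group alone, for age, or per month.

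At equal age 4 of the 68 genes passed, all higher in arthritic mice, where 2.26% of all probe sets passed. Colec12, a scavenger receptor gene of the marginal zone list, rose by 0.85 (SE 0.16, limma adjusted p = 0.0353). It measured 7.97 and 8.59 in the old arthritic, 7.82 and 7.81 in the old non-arthritic, 8.74 and 8.86 in the young arthritic and 8.07, 7.99, 7.78 and 7.92 in the young non-arthritic mice. The young arthritic mice were the highest, and old arthritic replicate 1 was within the range of the non-arthritic mice. In old mice Colec12 differed by 0.47, and by 0.15 without old arthritic replicate 2. Lgals3, which encodes galectin-3, rose by 0.69 (SE 0.13, limma adjusted p = 0.0332), Ms4a7, a membrane protein gene of macrophages, by 0.56 (SE 0.12, limma adjusted p = 0.0498), and Cd93, a surface glycoprotein gene of myeloid cells and endothelium, by 0.52 (SE 0.11, limma adjusted p = 0.0486).

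None of the 4 calls held throughout. With quantile normalization repeated all 4 missed the threshold, with limma adjusted p-values from 0.0663 (Colec12) to 0.173 (Cd93), and with each array centred on its median Cd93 (0.0521) and Ms4a7 (0.0598) did so. Leaving out each mouse in turn, Colec12 and Lgals3 passed in 6 of 10 fits, Ms4a7 in 3 and Cd93 in 2. Each of the 4 was lost without either old non-arthritic or either young arthritic mouse, with limma adjusted p-values of 0.106 to 0.240, and Ms4a7 and Cd93 were also lost without old arthritic replicate 2 and without young non-arthritic replicates 1 and 2, and Cd93 without young non-arthritic replicate 3, with values from 0.0547 to 0.0668.

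Among the red pulp genes, Spic, which encodes the factor that red pulp macrophages depend on, was at 11.73 and 11.79 in the old arthritic mice, below both old non-arthritic mice, with a difference of -0.23 (SE 0.10). In young mice it overlapped (0.06, SE 0.09), and its sign turned with quantile normalization repeated (-0.10). Slc11a1, an ion transporter gene of the phagosome (NRAMP1), differed by -0.08 (SE 0.11) in old and 0.24 (SE 0.09) in young mice. Cd209b, the SIGN-R1 lectin gene of marginal zone macrophages, differed by -0.36 (SE 0.33) and 0.22 (SE 0.29), with old arthritic replicate 2 at 9.20, the lowest of the 10 mice, as it was in Marco, and without that mouse the difference in old mice was -0.02.

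Of the transcription factors, Zeb2 differed by -0.38 (SE 0.15) in old and 0.09 (SE 0.13) in young mice and Maf by -0.08 (SE 0.12) and 0.24 (SE 0.10). Among the genes for uptake of dead cells, the cholesterol exporter gene Abca1 differed by -0.31 (SE 0.13) in old and 0.13 (SE 0.11) in young mice, and C1qb, a chain of the complement component C1q, by -0.08 (SE 0.10) and 0.24 (SE 0.08). The mannose receptor gene Mrc1 differed by -0.24 (SE 0.10) and 0.20 (SE 0.09), and the LPS coreceptor gene Cd14 by -0.17 (SE 0.12) and 0.16 (SE 0.10). Each of these 6 genes was below 0 in old mice and above 0 in young mice, and none passed in limma. With quantile normalization repeated, Zeb2 (-0.06) and Abca1 (-0.02) turned below 0 in young mice. All 6 were named for the smallest p of their list in the difference of the arthritis effects. That choice favours opposite signs at the 2 ages, so the shared pattern is not a separate result. Without old arthritic replicate 2 the old-mouse differences of Maf and C1qb were -0.18 and -0.19.

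The ligands of the receptors were chosen for their role and not by the rule used for the genes above. Csf1, the main ligand of CSF1R, was at 10.62 and 10.59 in the old arthritic and 10.83 and 11.00 in the old non-arthritic mice, a difference of -0.31 (SE 0.14, limma adjusted p = 0.289), and differed by -0.09 (SE 0.12) in young mice. Il34, the other ligand, differed by -0.03 (SE 0.13, and -0.0084 without old arthritic replicate 2) and 0.15 (SE 0.11). Gas6, a ligand of both AXL and MERTK, was at 10.79 and 10.54 against 10.78 and 11.18 in old mice, which overlapped (-0.32, SE 0.15, limma adjusted p = 0.285, and -0.19 without old arthritic replicate 2), and differed by -0.13 (SE 0.13) in young mice. Pros1, the gene for protein S, differed by -0.12 (SE 0.12) and 0.11 (SE 0.11).

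**Figure D4:**
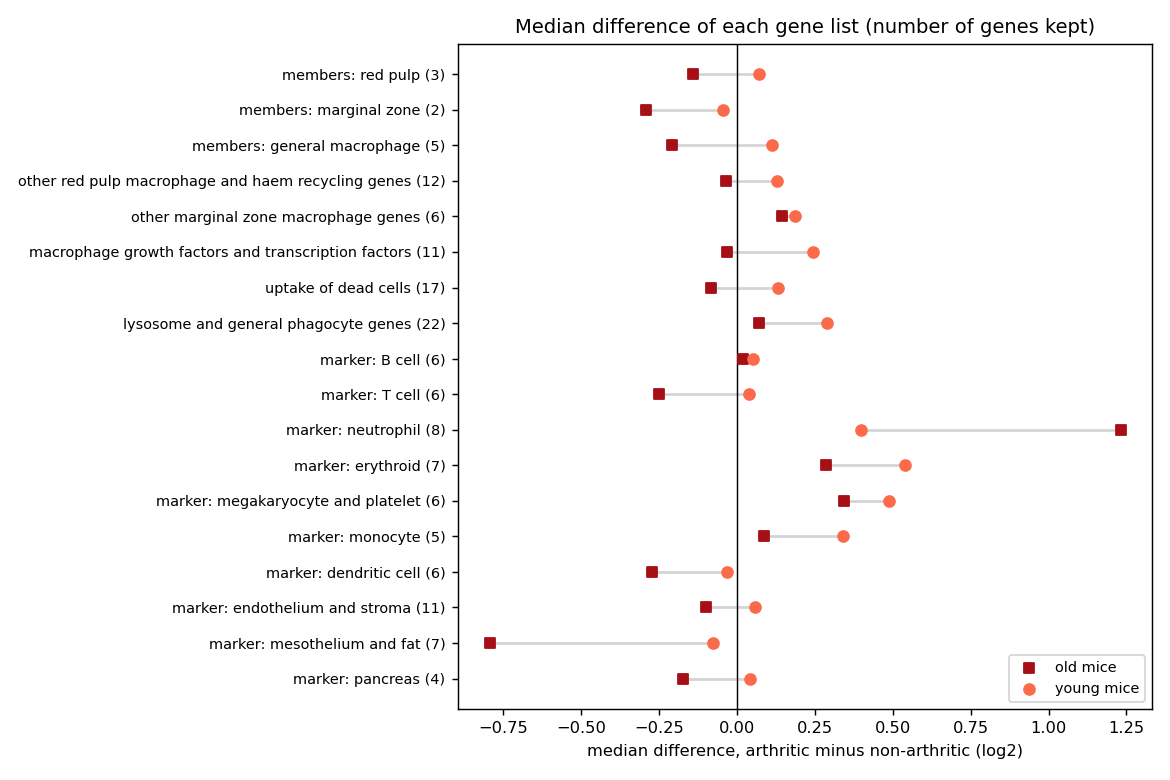
Median difference between arthritic and non-arthritic mice (log2) of the kept genes of each list, in old mice (squares) and young mice (circles), with the number of genes kept in brackets. The macrophage lists lie further left in old than in young mice, as do all other lists but that of neutrophil genes. The neutrophil list lies further right in old mice, at 1.23.

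Genes of other cell types differed between the same groups. In old mice the median difference was 1.23 over 8 neutrophil genes kept of 9 listed, and their summed signal was 113361 to 137945 in the arthritic and 64232 to 72186 in the non-arthritic mice. In young mice the neutrophil median was 0.40, with sums of 115932 to 166652 against 82753 to 135901. The T cell genes (6 kept of 7) summed to 7982 to 8018 in the old arthritic and 8793 to 9467 in the old non-arthritic mice, and the dendritic cell genes (6 of 7) to 2638 to 2715 against 3175 to 3234. Sums of the T cell, dendritic cell and macrophage genes were thus lower, and the neutrophil sum higher, in both old arthritic mice. How far the neutrophil RNA bears on the lower macrophage values was not tested.

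The monocyte genes (5 kept of 8) summed to 8423 to 12955 in the young arthritic mice, 5661 to 10073 in the young non-arthritic, 6780 to 8321 in the old arthritic and 4581 to 5484 in the old non-arthritic mice. The red cell genes (7 of 10) summed to 40950 to 50232 in the young arthritic mice and to 19797 to 40067 in the young non-arthritic mice, and to 50110 to 55666 in the old arthritic and 42409 to 46472 in the old non-arthritic mice. The red cell sums of arthritic and non-arthritic mice were apart at both ages, narrowly so in young mice (40950 against 40067). Cd5l and Cd68 were apart in young mice and overlapped in old mice. Whether red cell content bears on these 2 genes was not tested. Platelet genes (6 of 6) were also higher in the arthritic mice, at 42595 to 50559 against 30662 to 40943 in young and 33755 to 35978 against 27584 to 28568 in old mice. The mesothelium and fat genes (7 kept of 10) had a median of -0.79 in old mice, with overlapping sums of 1777 to 2767 and 2497 to 3030. The B cell sums overlapped at both ages (6 kept of 7, from 25984 to 33204 over all mice), and the pancreas list, of which 4 genes of 10 were kept, summed to 2210 to 2753 and 2277 to 2810 in the old groups. Of the marker genes only F13a1 of the monocyte list and Gp5 of the platelet list passed, both at equal age (limma adjusted p = 0.0490 and 0.0392). Both missed the threshold with quantile normalization repeated (limma adjusted p = 0.112 and 0.0816), F13a1 also with each array centred on its median (0.0595), and they passed in 3 and 5 of 10 leave-one-out fits.

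Over the 10 arrays the brightest probe sets of the 10 genes correlated with each other from -0.33 (Siglec1 and Cd68) to 0.92 (Vcam1 and Mertk), over 45 pairs of which 6 were below 0. The genes on the array whose levels were most like those of Adgre1 were Samd4 (Pearson r = 0.95), Tmem26 (0.94) and Kcnd3 (0.93), of 11869 genes compared. For Marco they were Marchf1 and Gpm6b (both 0.97) and Trmt10c (0.95), and for Csf1r they were Inpp5f and Qprt (both 0.94) and Kcna2 (0.88). These values describe 10 arrays that share the group differences given above, and are the highest of many.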

How the data were processed

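The values analysed are the authors' deposited log2 signals, made with RMA per the labels (version not given in the sources used), from 1 Affymetrix array of spleen RNA per mouse, with 10 mice in 4 groups. Of 45101 rows, 64 were controls and were not used. By the platform's annotation, 34945 of the remaining 45037 probe sets have a single gene symbol, 932 have several and 9160 have none. The 23805 probe sets above their array's median in at least 2 arrays were tested. A gene with several kept probe sets was read from the one of highest mean.

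Tests were made with limma 3.58.1 under R 4.3.3 (lmFit and eBayes), calling an adjusted p under 0.05 (Benjamini-Hochberg over all tested probe sets). A fit with 4 group means (6 residual degrees of freedom) gave 4 comparisons, and one with arthritis and age in months (7 degrees) gave 2. The paper states no method for the arrays. Replicates were separate mice, so a p-value reflects their spread only, and the number of arrays limits the precision. The members and lists were chosen with earlier results of these data known. Named list genes are those past the threshold and the 2 of each list with the smallest p for the difference of the effects. Same-numbered mice did not consistently deviate together (correlations from -0.525 to 0.356 over 12 pairs). In a group of 2 mice the deviations are equal and opposite, so some of these pairs repeat each other. The lowest value was between the old groups, where differently numbered mice thus deviated together. The fit was tested on simulated data. Promoters were read with Python 3.11.15, and figures were drawn with matplotlib 3.10.9.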

Additional observations from a re-analysis of the deposited data

How the results depend on the processing

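The 6 counts of called macrophage probe sets and the 6 medians over the 10 genes were recomputed with no filter and a stricter filter, 2 other scalings, 3 other treatments of the spread (a trend with intensity, no moderation, array weights), gene means, a replicate block, the compared groups alone and without each mouse. Directions of single genes under the scalings are given with the results, and 2 of the 10 genes in old mice and 5 in young mice changed sign with quantile normalization repeated. With no filter, the count of called probe sets was 1 (old), 2 (young) and 2 (equal age) in place of 0. With array weights it was 1 in young mice (Cd5l) and 2 at equal age (Cd5l and Cd68), and with gene means 1 in young mice (Cd5l). More probe sets entered the fit with no filter and fewer rows with gene means, and the cause of the changes was not tested. With quantile normalization repeated, the medians were -0.27 (old mice), -0.0398 (young mice), -0.25 for the difference of the effects and -0.15 at equal age. With non-arthritic mice alone, the median per month was 0.0187 in place of -0.0147.

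Without each mouse in turn, the medians for age ran from 0.0160 to 0.12, those for arthritis from -0.27 to -0.16 among old and from 0.05 to 0.13 among young mice, those for the difference of the effects from -0.34 to -0.27, and those for arthritis with age as a covariate from -0.10 to 0.10, with slopes from -0.041 to -0.0017 per month. The equal-age median was lowest without young arthritic replicate 2 and highest without old non-arthritic replicate 1, so its sign rests on single mice. The count of called probe sets ran from 0 to 1 in old mice, where Csf1r passed without old arthritic replicate 1, and was 0 in the other comparisons. With 1 mouse left in a group, that mouse is assumed to vary like the others. With the replicate number as a block, the medians were -0.20 (old mice), 0.11 (young mice) and -0.30 for the difference of the effects, and 0 probe sets were called in any comparison. A crossed pairing of the old mice, chosen after seeing the data, also gave 0. The limits are the 2 to 4 mice per group, the dim signal of Siglec1 and ages that differ between arthritic and non-arthritic mice. The checks of list and marker genes called at equal age, and of named list genes without old arthritic replicate 2, were also added after seeing the data.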
